A study of Mus musculus with 12 samples.

Results

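The comparison described here sets left ventricles injected with a hydrogel carrying antimiR-195 against left ventricles injected with saline. Its 8 libraries, of 12 in the series, were chosen by their group labels: 4 labelled Upy-PEG_antimiR-195, with Upy-PEG as the vehicle and antimiR-195 as the drug, and 4 labelled PBS, with phosphate-buffered saline as the vehicle and no drug. All came from healthy C57BL/6J mice whose chest was opened under anaesthesia for 2 injections of 10 µl into the heart muscle, and hearts were taken 3 days later. The remaining 4 libraries received Upy-PEG without the drug and enter only the estimate of spread and values set beside this comparison. Surgery, needle and injected volume were thus shared by all groups, while the PBS hearts received neither gel nor oligonucleotide, so the contributions of gel and antimiR to a difference from PBS cannot be told apart in this contrast. Age, sex, hour of collection, and the dose and sequence of the antimiR are not given in the sources used here. Whether every library stands for its own animal is not in the labels, so each p-value measures the spread between these samples.

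Upy-PEG is poly(ethylene glycol) carrying ureidopyrimidinone groups, which pair through hydrogen bonds and turn the polymer into a gel that can be injected. An antimiR is a short oligonucleotide complementary to a microRNA, which it binds and blocks. MicroRNAs guide Argonaute proteins to messenger RNAs, mostly through pairing of their seed with the 3′ untranslated region, and lower the level or translation of those messages. miR-195 belongs to the miR-15 family, which in the mouse heart increases after birth, holds back cell cycle genes such as Chek1, and has been linked to the loss of heart muscle cell division in early life. Shown are 6 mature family members, because they share the seed of miR-195. Which bases of miR-195 the antimiR pairs with is not given. The sequences are from RefSeq, with coordinates on GRCm38.p6, written 5′ to 3′ with the seed, bases 2 to 8, in capitals.
miR-195a-5p (chr11:70235062-70235082, plus strand): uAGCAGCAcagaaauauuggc
miR-497a-5p (chr11:70234730-70234751, plus strand): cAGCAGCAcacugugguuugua
miR-15a-5p (chr14:61632075-61632096, minus strand): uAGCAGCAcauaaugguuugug
miR-15b-5p (chr3:69009775-69009796, plus strand): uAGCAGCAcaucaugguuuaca
miR-16-5p (chr14:61631936-61631957, minus strand): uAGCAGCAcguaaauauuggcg
miR-322-5p (chrX:53054306-53054327, minus strand): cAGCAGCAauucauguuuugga
A second copy of miR-16-5p lies at chr3:69009918-69009939 on the plus strand. All 6 carry the same 7 bases in the seed, and miR-195a and miR-497a lie beside each other on chromosome 11. A perfect match in a message reads TGCTGCT, and the longer form with an A opposite base 1 reads TGCTGCTA. The libraries hold polyadenylated RNA and do not measure the mature microRNAs: the gene of the miR-195a precursor had at most 6 counts in any library.

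Counts on genes totalled 24.1 to 30.3 × 10⁶ in the PBS libraries and 22.4 to 25.6 × 10⁶ in the antimiR-195 libraries, and 18668 to 19356 genes had at least 1 count. Against the tissue label, all 20 cardiomyocyte markers were measured and together made up 130290 to 152824 CPM (counts scaled to 10⁶ per library) in PBS libraries and 127902 to 150036 CPM in antimiR-195 libraries. In 6 properties of the libraries (gene total, shares of mitochondrial, hemoglobin, top-50 and unassigned reads, and length slope) the exact 2-sided permutation p over 70 assignments lay between 0.2 and 0.943, where the smallest possible is 0.0286. AntimiR-195 replicates 2 and 3 stood apart from the rest on the first principal component, at −60.2 and −40.7 against −8.48 to 33.4 for the other 6 libraries. The same libraries differed in how level depended on gene length. The slope of log2 level on log2 gene length was 0.0151, −0.229, −0.135 and 0.0592 in antimiR-195 replicates 1 to 4 and −0.0415, 0.113, 0.102 and 0.0183 in PBS replicates 1 to 4.

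**Figure D1:**
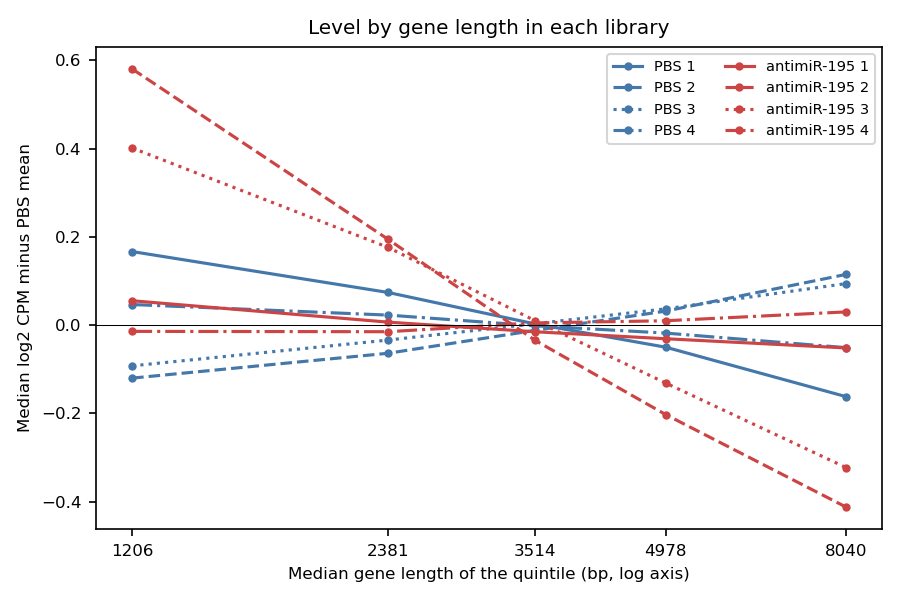
Median log2 CPM minus the PBS mean (vertical axis) for genes in 5 equal groups by length (horizontal axis), with 1 line per library of the PBS and antimiR-195 groups. In the shortest group antimiR-195 replicates 2 and 3 reach 0.581 and 0.402, while replicates 1 and 4 lie at 0.0555 and −0.014.

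Gene length moved with the difference between the groups. Among the shortest genes (median length 1205.5 bases) the median log2 fold change was 0.273, and among the longest (median 8040 bases) it was −0.179. Without antimiR-195 replicates 2 and 3 the same medians were 0.0062 and −0.0148. Of the shortest genes 562 were higher and 54 lower at an unadjusted p under 0.05, and of the longest 62 were higher and 506 lower. Without these 2 libraries the numbers were 73 and 46 for the shortest genes and 63 and 71 for the longest. Lists and leading genes are therefore also given without them.

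No single gene separated the hydrogel with antimiR-195 from saline after adjustment for all genes tested. A test across 14770 genes (edgeR quasi-likelihood test on counts of all 12 libraries, Benjamini-Hochberg adjustment, threshold 0.05) called 0 genes, which is 0%, and the smallest adjusted p was 0.235. DESeq2 called 97 genes (0.657%), 57 of them higher in the antimiR-195 group, and limma voom with sample weights called 1 (0.00677%), the clock gene Per1. At an unadjusted edgeR p under 0.05 stood 2444 genes (16.5%), of which 1278 (8.65%) were higher and 1166 (7.89%) lower with antimiR-195. Every antimiR-195 library lay above every PBS library for 405 genes (2.74%) and below for 490 (3.32%). Of all genes tested, 50.8% had a log2 fold change above 0 and 49.2% below, and the median was 0.0072. Without antimiR-195 replicates 2 and 3, the genes at an unadjusted p under 0.05 numbered 678 (4.48%), and with the length slope of each library as a covariate 1331 (9.01%). No gene in either of these passed the adjusted threshold. Leaving out libraries also leaves fewer samples, so fewer genes at a given p there does not by itself show smaller differences. Single libraries moved the count of higher genes from 1278 to 548 without antimiR-195 replicate 2, 847 without replicate 3, 2087 without replicate 4 and 667 without PBS replicate 2. The count of lower genes went from 1166 to 572, 736 and 2097 without antimiR-195 replicates 2, 3 and 4, and to 563 and 701 without PBS replicates 2 and 3. The split of the 2444 genes between higher (52.3%) and lower depended on scaling: library size alone gave 33.9% higher and a test on log2(RPKM + 0.1) gave 28.8%. In what follows a value is a level in TMM-scaled CPM, libraries are given in the order of replicates 1 to 4, fold changes are log2 with their standard error (antimiR-195 minus PBS), and a p given for a gene is edgeR's adjusted p. No gene named passed the adjusted edgeR threshold in this fit. The gene lists were chosen with earlier results of these data known. A list's count beside the share over all genes is therefore a description and not a test.

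Genes of cardiomyocyte strain and stress were mostly higher with antimiR-195. Of 20 genes tested, 16 were higher in mean and 4 lower. An unadjusted p under 0.05 was reached by 9 in the higher direction and by 0 in the lower direction, and 6 had no overlap between the groups. Over all genes tested, 8.65% were higher at that p and 2.74% lay above PBS without overlap. The median log2 fold change of the list was 0.37, beside 0.0072 over all genes, and 0.29 without antimiR-195 replicates 2 and 3, where 18 of 20 were higher. These genes are of interest because heart muscle cells switch many of them on again under load, stretch or injury.

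Nppb, which encodes B-type natriuretic peptide (ENSMUSG00000029019, GRCm38 chromosome 4, 147985788 to 147987205), measured 188, 128, 166 and 98.03 CPM in PBS libraries and 275, 643, 301 and 378 CPM in antimiR-195 libraries. The lowest antimiR-195 library was above the highest PBS library. The log2 fold change was 1.46 ± 0.257 (edgeR adjusted p = 0.235; DESeq2 adjusted p = 0.000111), and 1.18 without replicates 2 and 3. Nppa, the atrial natriuretic peptide (ENSMUSG00000041616, GRCm38 chromosome 4, 148000722 to 148002079), measured 227, 363, 371 and 325 CPM with PBS and 591, 1298, 625 and 995 CPM with antimiR-195. Again the groups did not overlap, and antimiR-195 replicates 2 and 4 were the highest. Its log2 fold change was 1.45 ± 0.273 (edgeR adjusted p = 0.235; DESeq2 adjusted p = 0.000321), and 1.31 without replicates 2 and 3.

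Tnfrsf12a, the receptor of the cytokine TWEAK, stood at 23.1, 24.9, 27.6 and 22.7 CPM with PBS and at 41.7, 61.2, 30.8 and 53.2 CPM with antimiR-195. The groups did not overlap, and replicate 3 was close to the PBS range. The log2 fold change was 0.93 ± 0.176 (edgeR adjusted p = 0.235), and 0.96 without replicates 2 and 3. Rcan1, a calcineurin target and regulator, stood at 71.02, 66.3, 75.1 and 70.8 CPM and 92.01, 135, 97.3 and 146 CPM (log2 fold change 0.73 ± 0.178, edgeR adjusted p = 0.253). Here the PBS libraries lay within a narrow band and all antimiR-195 libraries above it. The sarcomere-associated LIM protein gene Fhl1 (0.45 ± 0.124) and the small heat shock protein gene Hspb1 (0.42 ± 0.131) also had no overlap. Skeletal actin Acta1 measured 0.69 ± 0.207, with overlap, and 0.46 without replicate 2. The titin-binding repeat protein gene Ankrd1 gave 0.36 ± 0.218 (edgeR adjusted p = 0.378). The fetal β-myosin gene Myh7 gave 0.11 ± 0.364 in all 8 libraries and −0.42 without antimiR-195 replicates 2 and 3, so its sign depended on those libraries.

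**Figure D2:**
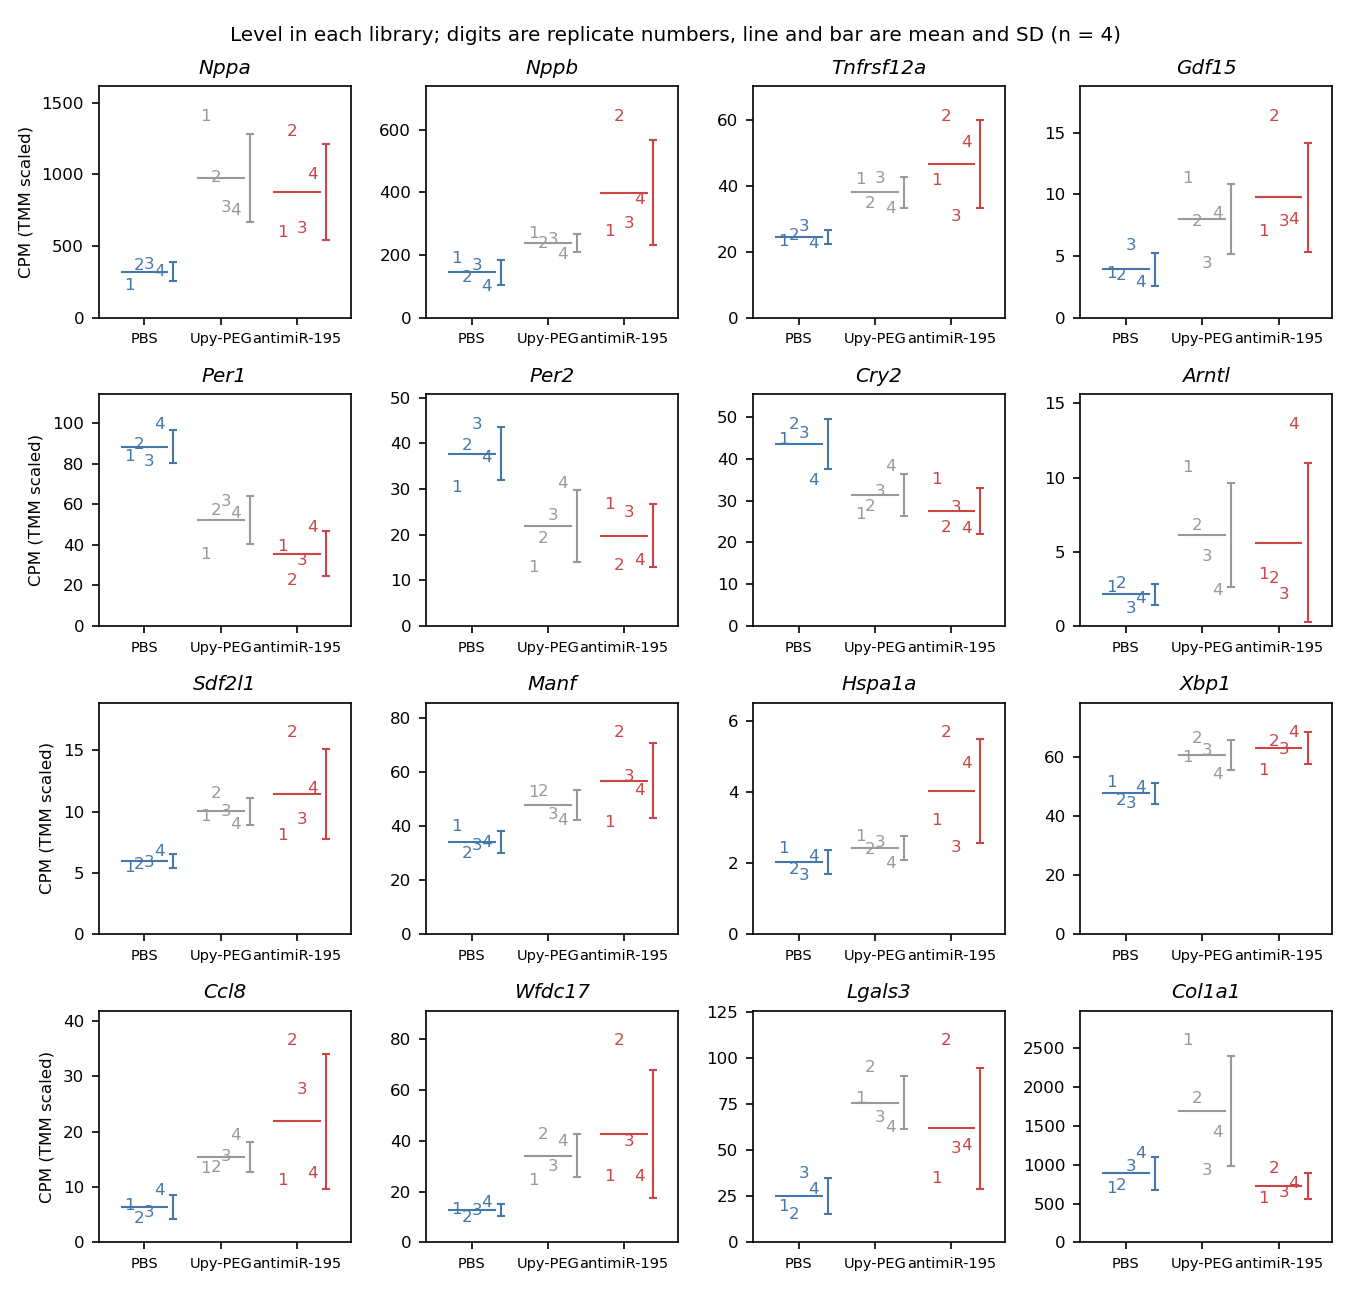
Level of 16 genes in CPM (vertical axes, each panel on its own scale) in the PBS, Upy-PEG and antimiR-195 groups (horizontal axis); digits are the replicates, the line is the mean and the bar its SD (n = 4). The Per1 panel shows all 4 antimiR-195 libraries (22.5 to 48.5 CPM) below all PBS libraries (81.3 to 99.3 CPM), and the Nppb panel the opposite order.

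Nppa is also an atrial gene, so the atrial markers are given beside it. Of 10 atrial markers 8 were tested, and Bmp10 had 0 counts in every library. The summed level of the list, Nppa included, was 305 to 444 CPM with PBS and 654 to 1433 CPM with antimiR-195. Atrial myosin light chain Myl7 measured 2.08, 8.02, 3.71 and 11.4 CPM with PBS and 0.928, 24.1, 2.79 and 8.05 CPM with antimiR-195, with replicate 2 the highest. Replicate 2 was also the highest antimiR-195 library in Myl4 (45.1 CPM) and sarcolipin, Sln (6.498 CPM). AntimiR-195 replicate 1 had the lowest Myl7 of the 8 libraries (0.928 CPM) and had 591 CPM of Nppa, above the PBS maximum of 371 CPM. Replicate 2 also had the highest Nppa. Whether atrial tissue contributed to Nppa was not tested. Leaving out replicate 2 took the atrial list's median from 0.32 to −0.14.

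Among the 20 cardiomyocyte markers, 1 gene, Tnnc1, the cardiac troponin C gene, was higher at an unadjusted p under 0.05 (0.61 ± 0.233; 0.34 without antimiR-195 replicate 2 and 0.12 without replicates 2 and 3). Myh6, the adult α-myosin, was lower (−0.40 ± 0.169; −0.15 without them). Of 12 skeletal muscle markers 7 were tested, with 6 higher in mean and 1 lower (median 0.52; −0.0065 without replicates 2 and 3). In this list Tnnt3 had no overlap (1.58 ± 0.399; 1.53 without replicates 2 and 3). Its levels were low, at 0.467 to 0.749 CPM with PBS and 0.928 to 2.44 CPM with antimiR-195. Tnni2, of the same list, gave 0.64 ± 0.281, 0.34 without replicate 2 and −0.0065 without both. Myl1, a fast myosin light chain, was among the genes with the lowest p: 19.9, 17.3, 23.6 and 23.7 CPM with PBS and 34.4, 33.6, 27.3 and 38.9 CPM with antimiR-195 (0.67 ± 0.124, edgeR adjusted p = 0.235). Skeletal myosins Myh1, Myh2, Myh4 and Myh8 were not tested and had at most 17 counts in any library. Genes of calcium cycling and ion channels had a median of −0.19 (9 of 30 higher, 21 lower) and −0.030 without replicates 2 and 3. The hERG-type potassium channel Kcnh2 measured −0.33 ± 0.123, while triadin, Trdn, a protein of the calcium release unit, measured 0.33 ± 0.1197.

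Clock genes were mostly lower with antimiR-195. The hour at which each heart was collected is not given, and its part in these differences was not tested. The circadian clock is a loop in which BMAL1 (gene Arntl) and CLOCK or NPAS2 bind E-box sequences and turn on Per and Cry genes, whose proteins then shut the loop off, together with output factors such as Dbp, Tef and Hlf. Of 21 genes of the loop and its outputs, 5 were higher in mean and 16 lower, with 8 lower and 1 higher at an unadjusted p under 0.05 and 6 below PBS without overlap, beside 7.89% lower at that p and 3.32% below without overlap over all genes. The median log2 fold change was −0.18 and −0.18 without antimiR-195 replicates 2 and 3. The list's genes are long (median 5022 bases), and with the length slope as a covariate the median was −0.22.

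Per1 (ENSMUSG00000020893, GRCm38 chromosome 11, 69095217 to 69109960), a repressor of the loop, had the lowest edgeR p of all genes tested. It measured 83.8, 89.4, 81.3 and 99.3 CPM in PBS libraries and 39.2, 22.5, 32.4 and 48.5 CPM in antimiR-195 libraries. Every antimiR-195 library was well below every PBS library. Its log2 fold change was −1.31 ± 0.212 (edgeR adjusted p = 0.235; voom adjusted p = 0.0438; DESeq2 adjusted p = 5.12e-05). Per1 was the 1 gene that edgeR called when no filter on low counts was used (adjusted p = 0.0415). The log2 fold change was −1.004 without replicates 2 and 3. Per2 measured 30.4, 39.7, 44.2 and 36.9 CPM with PBS and 26.7, 13.3, 24.9 and 14.4 CPM with antimiR-195 (−0.93 ± 0.2703, edgeR adjusted p = 0.253), without overlap. Per3 measured 63.7, 69.6, 75.2 and 69.4 CPM and 54.8, 35.5, 52.1 and 24.8 CPM (−0.73 ± 0.219, edgeR adjusted p = 0.253), also without overlap. Cry2 measured 44.7, 48.2, 46.2 and 34.8 CPM and 35.1, 23.5, 28.4 and 23.3 CPM (−0.66 ± 0.157, edgeR adjusted p = 0.253), where antimiR-195 replicate 1 lay within the PBS range. The output factors Hlf (−0.56 ± 0.198) and Tef (−0.55 ± 0.216) and the casein kinase gene Csnk1d (−0.17 ± 0.0768), whose product acts on PER proteins, were lower as well, Tef and Csnk1d without overlap.

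Arntl, on the activator side of the loop, was higher in mean. Arntl measured 2.57, 2.84, 1.21 and 1.87 CPM with PBS and 3.48, 3.18, 2.15 and 13.6 CPM with antimiR-195 (1.41 ± 0.566, edgeR adjusted p = 0.273). AntimiR-195 replicate 4 was the highest of the antimiR-195 libraries in Arntl, Clock (44.04 CPM) and Npas2 (5.61 CPM) and the lowest in Dbp (57.9 CPM), Ciart (2.94 CPM), Per3 and Tef. In Dbp the other 3 antimiR-195 libraries lay within the PBS range. Leaving out replicate 4 gave a log2 fold change of 0.47 for Arntl and −1.497 for Per1.

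Per1 is shown with its promoter because it led the comparison and is a textbook E-box target. The 300 bases run from 250 before the start to 50 after it (RefSeq, GRCm38.p6, plus strand), in lower case with the E-box CACGTG in capitals.
Per1 promoter (chr11:69098699-69098998): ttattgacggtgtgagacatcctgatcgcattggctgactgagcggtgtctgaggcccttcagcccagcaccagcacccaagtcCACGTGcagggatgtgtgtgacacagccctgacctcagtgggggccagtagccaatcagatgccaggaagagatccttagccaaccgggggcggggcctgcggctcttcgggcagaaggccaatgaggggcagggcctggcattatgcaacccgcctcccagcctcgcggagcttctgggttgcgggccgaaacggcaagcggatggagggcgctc
CACGTG reads the same on both strands. It occurred in this window in 5 of 17 clock genes with a promoter in the table (29.4%) and in 8.09% of 27025 genes. A match in the window is a description and shows no binding.

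Genes of protein folding in the endoplasmic reticulum were mostly higher in mean. When unfolded proteins build up there, the sensors IRE1, PERK and ATF6 turn on chaperones such as BiP (Hspa5) and factors such as XBP1. Of 19 genes, 15 were higher in mean and 4 lower, with 8 higher and 0 lower at an unadjusted p under 0.05 and 4 above PBS without overlap, where the shares over all genes are 8.65% and 2.74%. The median was 0.22, and 0.21 without antimiR-195 replicates 2 and 3, where 16 were higher. Sdf2l1, a partner of the ER chaperones, measured 5.47, 5.68, 5.83 and 6.77 CPM with PBS and 8.07, 16.4, 9.34 and 11.9 CPM with antimiR-195, with no overlap (0.95 ± 0.193, edgeR adjusted p = 0.253). Manf, a secreted ER-resident factor, measured 39.9, 29.99, 32.9 and 33.97 CPM and 41.2, 74.6, 58.4 and 53.4 CPM, also with no overlap (0.73 ± 0.1596, edgeR adjusted p = 0.253). Xbp1 itself lay at 51.4, 45.2, 44.2 and 49.8 CPM and 55.6, 65.3, 62.6 and 68.2 CPM (0.40 ± 0.0988, edgeR adjusted p = 0.253), in 2 separate narrow bands. Hspa5 measured 0.33 ± 0.137 and the disulfide isomerases Pdia6 and Pdia3 0.44 ± 0.144 and 0.40 ± 0.134.

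Other stress programmes had fewer members past the unadjusted p. In the cytosolic heat shock list 12 of 17 genes were higher and 3 had an unadjusted p under 0.05 (median 0.14). The inducible HSP70 gene Hspa1a measured 2.41, 1.82, 1.67 and 2.19 CPM with PBS and 3.202, 5.68, 2.44 and 4.799 CPM with antimiR-195 (0.99 ± 0.249, edgeR adjusted p = 0.253), with no overlap. Its near-identical neighbour Hspa1b measured 1.06 ± 0.2998, and because the reads of the pair are hard to separate the split between them is uncertain. In the ATF4 list, the branch that answers amino acid shortage and PERK, 5 genes were higher and 1 lower at an unadjusted p under 0.05 (median 0.20; 0.033 without antimiR-195 replicates 2 and 3). Gdf15, a stress cytokine, measured 3.58, 3.44, 5.87 and 2.83 CPM and 7.01, 16.4, 7.77 and 7.93 CPM (1.32 ± 0.332, edgeR adjusted p = 0.253), and Atf3, a stress-induced transcription factor, 0.91 ± 0.266. Chac1, a glutathione-degrading enzyme of the same branch, was lower (−0.77 ± 0.348). Of 23 immediate early genes 2 were higher and 1 lower at an unadjusted p under 0.05, near the 8.65% and 7.89% of all genes (median 0.16; 0.060 without antimiR-195 replicates 2 and 3). The orphan receptor Nr4a1 measured −1.03 ± 0.365. Cdkn1a, the p21 brake on the cell cycle, measured 12.9, 15.7, 14.1 and 14.4 CPM and 14.3, 19.7, 17.5 and 42.4 CPM (0.72 ± 0.295). Replicate 4 was the highest, and without it the value was 0.27.

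Macrophage genes and their chemokines were higher in mean, with smaller medians when antimiR-195 replicates 2 and 3 were left out. In bulk tissue more macrophages and more of these messages per macrophage cannot be told apart. Of 20 macrophage markers, 16 were higher in mean and 4 lower, with 10 higher at an unadjusted p under 0.05, beside 8.65% of all genes. The median was 0.52 with all libraries, 0.26 without antimiR-195 replicate 2 and 0.13 without replicates 2 and 3. In that last fit 1 member was at an unadjusted p under 0.05, beside 4.48% of all genes. Cd68, a lysosomal membrane protein of macrophages, measured 18.1, 21, 34.4 and 31.8 CPM with PBS and 34.6, 50.04, 39.4 and 42.03 CPM with antimiR-195 (0.66 ± 0.192, edgeR adjusted p = 0.253; 0.55 without replicates 2 and 3). All antimiR-195 libraries were above the PBS libraries, by a small margin. The scavenger receptor Cd163, a marker of resident macrophages, was the one member lower at an unadjusted p under 0.05 (−0.60 ± 0.257; −0.51 without replicates 2 and 3), and it did not overlap. The pan-macrophage gene Adgre1 measured 0.22 ± 0.188 and the mannose receptor Mrc1 0.16 ± 0.113. Lyve1, another gene of resident macrophages, gave −0.56 ± 0.261. Of 10 genes in the resident list 5 were higher in mean and 5 lower (median 0.037; −0.22 without replicates 2 and 3). At an unadjusted p under 0.05 2 were higher and 2 lower, beside 8.65% and 7.89% of all genes. The higher 2 were Igf1 (0.62 ± 0.204) and Folr2 (0.39 ± 0.169), at 0.31 and 0.15 without replicates 2 and 3.

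Among chemokines and cytokines 21 of 28 were higher, 11 with an unadjusted p under 0.05, beside 8.65% of all genes (median 0.50; 0.17 without replicates 2 and 3). The monocyte-attracting chemokine Ccl8 measured 6.61, 4.24, 5.37 and 9.32 CPM with PBS and 11.1, 36.4, 27.5 and 12.5 CPM with antimiR-195 (1.77 ± 0.351, edgeR adjusted p = 0.253; 0.89 without them), without overlap. Ccl3, Ccl7 and Ccl2, also ligands of monocyte receptors, gave 1.62 ± 0.413, 1.30 ± 0.34 and 0.97 ± 0.329, and the cytokines Il18 and Osm 1.40 ± 0.389 and 1.36 ± 0.551. Without replicates 2 and 3 Ccl3, Ccl7 and Ccl2 gave 1.08, 0.77 and 0.63. Counts of Ccl3 were low, at 0.326 to 0.624 CPM with PBS. Cxcl12, made by stromal and endothelial cells, was lower (−0.37 ± 0.145). Wfdc17, a small secreted protein of activated macrophages, was among the 10 genes of lowest p in the higher direction: 12.8, 9.71, 12.5 and 15.8 CPM with PBS and 25.9, 79.3, 39.7 and 25.97 CPM with antimiR-195 (1.75 ± 0.325, edgeR adjusted p = 0.235; 1.04 without replicates 2 and 3). All 4 antimiR-195 libraries lay above all PBS libraries. Apobec1, an RNA-editing enzyme also made by myeloid cells, measured 8.6, 10.8, 13.1 and 13.6 CPM and 16.1, 22.2, 20.3 and 22.1 CPM (0.81 ± 0.1498, edgeR adjusted p = 0.235; 0.74 without them). Lipo3, a lipase gene, measured 9.28, 8.36, 8.78 and 7.96 CPM and 12.9, 13.5, 11.8 and 11.9 CPM (0.54 ± 0.101, edgeR adjusted p = 0.235). Both were free of overlap, and Lipo3 gave 0.54 without replicates 2 and 3.

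A foreign body such as a gel attracts macrophages that can fuse into giant cells. Of 14 fusion genes, 13 were higher in mean and 1 lower, 4 with an unadjusted p under 0.05 and none without overlap (median 0.42; 0.15 without replicates 2 and 3). Galectin-3, Lgals3, measured 19.6, 14.9, 37.5 and 28.5 CPM with PBS and 34.7, 109, 50.9 and 52.4 CPM with antimiR-195 (1.30 ± 0.331; 0.80 without them). The lipid receptor Trem2 measured 1.16 ± 0.324 (0.73 without replicate 2, 0.49 without both) the macrophage elastase Mmp12 0.85 ± 0.342, and the lysosome-associated glycoprotein gene Gpnmb 0.42 ± 0.297. Of 24 lysosome genes 11 were higher and 2 lower at an unadjusted p under 0.05, beside 8.65% and 7.89% of all genes (median 0.25; 0.10 without replicates 2 and 3). Among them were the cathepsins Ctsz (0.66 ± 0.2) and Ctss (0.96 ± 0.307), which gave 0.41 and 0.59 without replicate 2, and 0.21 and 0.37 without replicates 2 and 3. Of 16 complement genes 6 were higher and 1 lower at the same p (median 0.25; 0.060), including the receptor C3ar1 (0.73 ± 0.212). MHC class II genes had a median of 0.49 with all libraries and −0.054 without replicates 2 and 3. None of the 8 neutrophil markers tested was at an unadjusted p under 0.05. S100a8 measured 1.16, 5.12, 6.06 and 1.51 CPM and Lcn2 10.6, 38.5, 44.97 and 7.74 CPM in antimiR-195 replicates 1 to 4, highest in replicates 2 and 3, and the median of the markers was 0.15 with all libraries and −0.75 without those 2. Of the 11 markers Ly6g and Camp had at most 3 counts in any library.

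**Figure D3:**
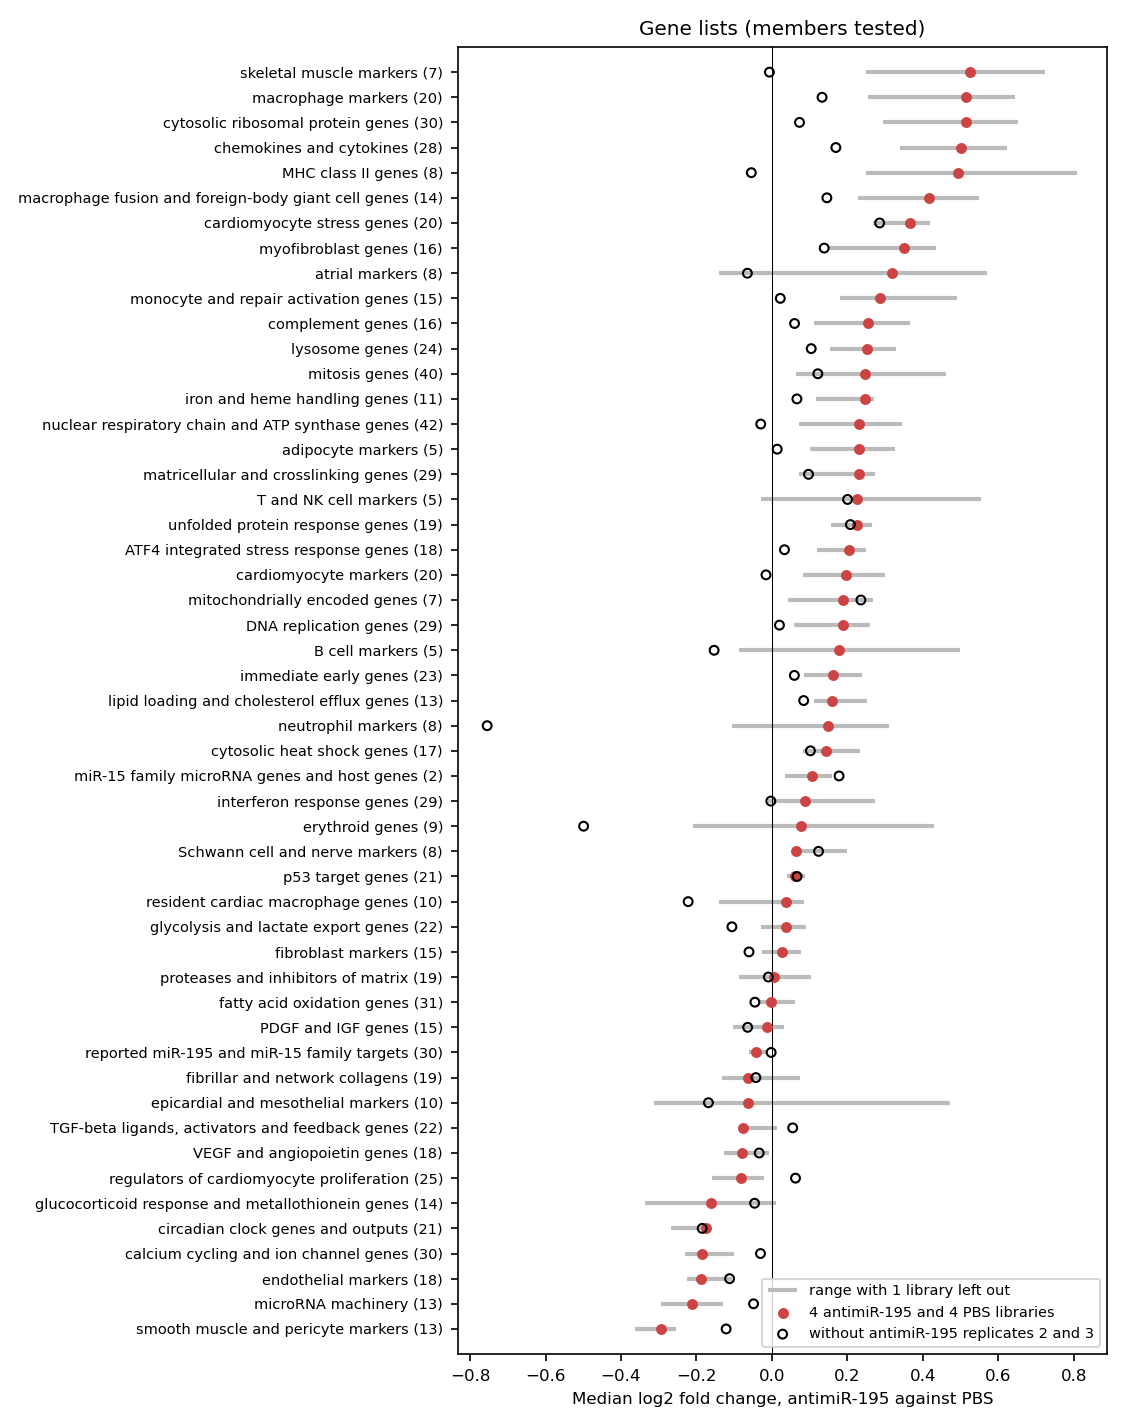
Median log2 fold change, antimiR-195 minus PBS (horizontal axis), of each gene list (vertical axis) with all libraries and without antimiR-195 replicates 2 and 3; bars give the range when each library is left out. Without those libraries the stress list lies at 0.29 and the clock list at −0.18, and the ribosomal list goes from 0.51 to 0.073.

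Myofibroblast genes were mostly higher in mean, and collagens were not. Myofibroblasts are activated fibroblasts that contract and lay down collagen, guided by matricellular proteins such as periostin. Of 16 myofibroblast genes, 14 were higher in mean and 2 lower, with 5 higher at an unadjusted p under 0.05 against 8.65% of all genes (median 0.35; 0.14 without replicates 2 and 3). Periostin, Postn, measured 139, 112, 141 and 151 CPM with PBS and 165, 464, 169.9 and 224 CPM with antimiR-195 (0.91 ± 0.359, edgeR adjusted p = 0.271; 0.52 without them). The groups did not overlap, and replicate 2 was far above the other 3. Without replicate 2 the value was 0.45. Meox1, a transcription factor of activated fibroblasts, measured 1.01 ± 0.279 (0.81 without them). Matricellular genes had a median of 0.23 (5 of 29 higher, 0 lower at an unadjusted p under 0.05). It was 0.071 without antimiR-195 replicate 2 and 0.097 without replicates 2 and 3. In that last fit 1 member was at that p, beside 4.48% of all genes. Thbs4, a matricellular glycoprotein, measured 0.91 ± 0.345 (0.48 without replicate 2, 0.52 without both). Of the collagens 7 of 19 were higher and 12 lower, with 0 at an unadjusted p under 0.05 (median −0.062). Col1a1, the main chain of type I collagen, measured 692, 736, 974 and 1144 CPM with PBS and 559.6, 949.9, 636 and 752 CPM with antimiR-195, with wide overlap (−0.29 ± 0.274, edgeR adjusted p = 0.5597). Col3a1, of type III collagen, measured −0.12 ± 0.244 and smooth muscle actin, Acta2, 0.27 ± 0.282. Proteases and their inhibitors had a median of 0.0045, with Timp3 at −0.59 ± 0.193 (−0.32 without replicates 2 and 3). Of 22 genes of the TGF-β list 3 were higher and 3 lower at an unadjusted p under 0.05, beside 8.65% and 7.89% of all genes. The list's median was −0.078, and 0.055 without replicates 2 and 3. The latent TGF-β binding protein genes Ltbp4 (−0.48 ± 0.127) and Ltbp1 (−0.32 ± 0.1105) and the co-receptor Tgfbr3 (−0.49 ± 0.1496) were lower without overlap. Without replicates 2 and 3 Ltbp4 gave −0.30 and Tgfbr3 −0.30.

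Cell cycle genes, the programme miR-195 is known to restrain, were mostly higher in mean, with few members past the unadjusted p. Of 40 mitosis genes, 35 were higher and 5 lower, and 1 reached an unadjusted p under 0.05 and none was free of overlap. Over all genes 50.8% were higher in mean, 8.65% were higher at that p and 2.74% lay above PBS without overlap. The mitosis counts at that p and without overlap thus do not exceed the background, while 35 of 40 were higher in mean. The median was 0.25, 0.064 without antimiR-195 replicate 2 and 0.12 without replicates 2 and 3. Mki67, the proliferation marker, measured 7.69, 10.2, 15.1 and 15.4 CPM with PBS and 10.6, 13.3, 8.7 and 13.3 CPM with antimiR-195 (−0.074 ± 0.271, edgeR adjusted p = 0.894), and its sign changed when single libraries were left out. Topoisomerase gene Top2a measured 0.15 ± 0.315 and the spindle checkpoint kinase gene Bub1 0.49 ± 0.334. The member at p under 0.05 was Birc5, or survivin (0.75 ± 0.286; 0.43 without replicate 2 and 0.18 without replicates 2 and 3). DNA replication genes had 4 higher and 0 lower at that level (median 0.19; 0.020), 3 of them subunits of the clamp loader: Rfc3 (0.68 ± 0.184), Rfc5 (0.58 ± 0.224) and Rfc4 (0.40 ± 0.1696; 0.24 without replicate 2). Bulk tissue does not show which cells carried these messages. Among 25 regulators of cardiomyocyte proliferation 9 were higher in mean and 16 lower. At an unadjusted p under 0.05 1 was higher and 2 lower, beside 8.65% and 7.89% of all genes. The lower 2 were Ccnd2 and the matrix protein gene Agrn (−0.55 ± 0.193; −0.29 without replicates 2 and 3).

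The target list shows how messages that the microRNA family holds down differed between the antimiR-195 and PBS groups. Gel and antimiR cannot be told apart in this contrast. Of 30 reported targets of miR-195 and the miR-15 family, 11 were higher in mean and 19 lower, with 2 higher and 2 lower at an unadjusted p under 0.05 and none without overlap in either direction. Over all genes 8.65% were higher and 7.89% lower at that p, so the targets' counts are near the background. The median was −0.043, beside 0.0072 over all genes, and −0.0019 without antimiR-195 replicates 2 and 3. For Upy-PEG against PBS the list's median was 0.0045, and for antimiR-195 against Upy-PEG −0.067. A seed match was found in the longest 3′ untranslated region of 26 of the 30, and of these 9 were higher and 17 lower (median −0.046). Sites of the targets described next are shown with the seed match in capitals, on GRCm38 and read 5′ to 3′ on the message strand.
Chek1 8mer (chr9:36710284-36710311, minus strand): cctggtgaatagagTGCTGCTatgtgac
Wee1 8mer (chr7:110142654-110142681, plus strand): ttgccttgtgaattTGCTGCTattttag
Ccnd2 8mer (chr6:127128535-127128562, minus strand): aatgtttcacggtgTGCTGCTattttag
Ccne1 8mer (chr7:38098017-38098044, minus strand): tcttattttgtaagTGCTGCTatgtcta
Birc5 7mer-m8 (chr11:117853543-117853570, plus strand): ggtgaggtgggtccTGCTGCTcaagtcc
The first 4 are followed by an A, which makes them the longer form of match.

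Chek1, a checkpoint kinase and a well-known family target, measured 0.489, 1.02, 1.29 and 2.07 CPM with PBS and 0.882, 1.55, 1.03 and 0.929 CPM with antimiR-195 (−0.14 ± 0.368, edgeR adjusted p = 0.851). The groups overlapped throughout. Wee1, the kinase that holds CDK1 inactive, measured 8.34, 10.1, 12.2 and 11.2 CPM and 9.19, 5.51, 8.21 and 5.26 CPM (−0.57 ± 0.194, edgeR adjusted p = 0.253; −0.53 without replicates 2 and 3), and it was lower, not higher. Cyclin D2, Ccnd2, was lower too (−0.59 ± 0.234; −0.23). The higher members were Birc5 and Cdk4 (0.33 ± 0.1299; 0.21 without replicate 3, 0.099 without replicates 2 and 3). Ccne1 measured 0.40 ± 0.288 and changed sign without replicates 2 and 3 (−0.052), Ccnd1 measured −0.022 ± 0.107, Cdk6 −0.45 ± 0.313, and the survival gene Bcl2 −0.10 ± 0.1798.

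**Figure D4:**
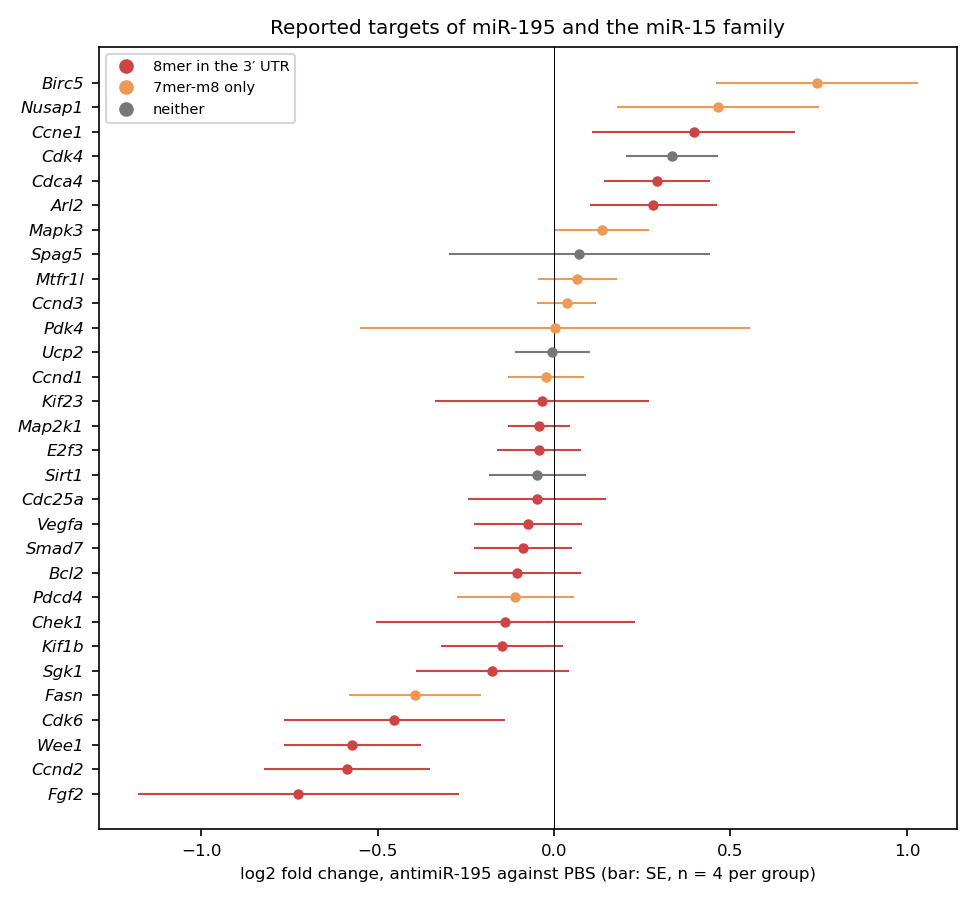
Log2 fold change, antimiR-195 minus PBS, with its standard error (horizontal axis) for the 30 reported targets (vertical axis), coloured by the kind of seed match in the longest 3′ untranslated region. Of the 30, 11 lie above 0 and 19 below, and those with a match lie on both sides.

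The same comparison was made over all genes. In the longest 3′ untranslated region, 3300 tested genes held an 8mer or 7mer-m8 match to the seed, and 7246 held no 6mer match. Their median log2 fold changes were −0.085 and 0.056, but genes with a match are longer (median 4797 against 3105 bases). Within deciles of untranslated region length, the difference in median between genes with and without a match was −0.041 on the log2 scale, and −0.033 without antimiR-195 replicates 2 and 3. For the 604 genes with an 8mer it was −0.043, and −0.021 without those libraries. Measured against the PBS mean, the shift was −0.031, −0.041, −0.038 and −0.034 in antimiR-195 replicates 1 to 4. In the PBS libraries, centred on 0 by construction, it was 1.31e-05, 0.022, −0.019 and −0.0019. The Upy-PEG libraries, which received no antimiR, gave −0.034, −0.045, −0.027 and −0.027, a range that holds all 4 values of the antimiR-195 libraries. No shift toward higher levels of genes with a match was seen in any of the 4 antimiR-195 libraries. These are message levels, and translation was not measured.

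The genes that carry the microRNA family were barely measurable. Of 14 family genes and host genes 2 were tested. Dleu2, the long noncoding host of miR-15a and miR-16, measured 3.65, 2.59, 2.58 and 2.79 CPM with PBS and 3.39, 3.49, 3.86 and 3.87 CPM with antimiR-195 (0.33 ± 0.156, edgeR adjusted p = 0.307), and Smc4, the host of miR-15b, −0.11 ± 0.1496. Of 13 genes of the microRNA machinery 1 was higher and 12 lower (median −0.21, −0.049 without replicates 2 and 3), with Ago1 at −0.45 ± 0.207 and Drosha at −0.36 ± 0.159. Without replicates 2 and 3 they gave −0.16 and −0.084, and Drosha −0.22 without replicate 2 alone. These genes are long (median 8120 bases).

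Ribosomal protein genes are short, and antimiR-195 replicates 2 and 3 were highest in them. All 30 cytosolic ribosomal protein genes were higher, 26 with an unadjusted p under 0.05, beside 8.65% of all genes (median 0.51, median length 1645 bases). Their mean deviation from the PBS mean was 0.091, 1.06, 0.72 and 0.057 in antimiR-195 replicates 1 to 4 and 0.23, −0.23, −0.095 and 0.099 in PBS replicates 1 to 4. Without replicates 2 and 3 the median was 0.073, and 1 gene had an unadjusted p under 0.05, beside 4.48% of all genes. Rpl35, a protein of the large subunit, measured 0.96 ± 0.211 and 0.41 without them, and ribosomal protein genes have many processed copies, so their counts are uncertain. Nuclear genes of the respiratory chain had a median of 0.23 (35 of 42 higher) and −0.030 without the 2 libraries. Fatty acid oxidation genes had a median of −0.0032. Of 31 tested, 1 lay below PBS without overlap, near the 3.32% of all genes. It was Hadha, a subunit of the mitochondrial trifunctional protein (−0.33 ± 0.142; −0.14 without the 2 libraries).

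**Figure D5:**
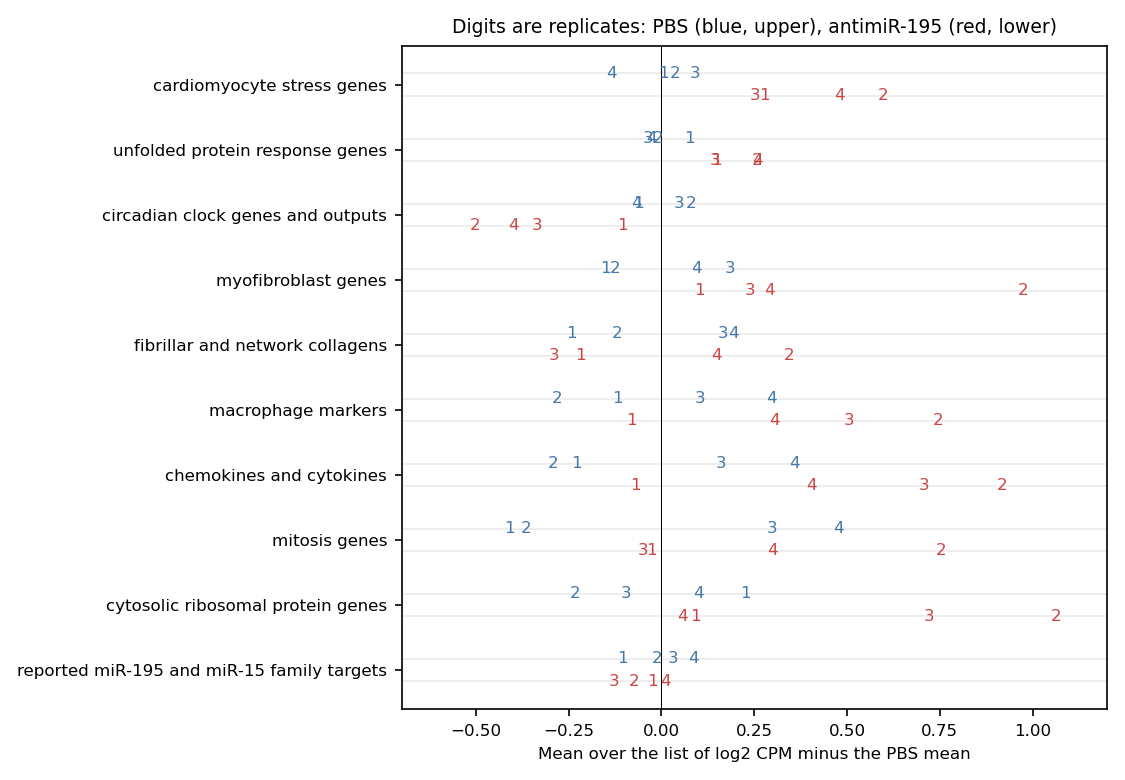
Mean deviation of 10 gene lists from the PBS mean (horizontal axis, log2 CPM) in each PBS and antimiR-195 library, with digits as replicates. In the stress list the antimiR-195 libraries lie at 0.28, 0.60, 0.25 and 0.48, and in the ribosomal list at 0.091, 1.06, 0.72 and 0.057, where replicates 2 and 3 are the highest.

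Markers of vessel cells were lower in mean. Of 18 endothelial markers, 4 were higher and 14 lower, with 6 lower at an unadjusted p under 0.05, beside 7.89% of all genes (median −0.19). Without antimiR-195 replicates 2 and 3 the median was −0.11 and 0 members were at that p, beside 4.48% of all genes. Robo4, an endothelial guidance receptor, measured −0.32 ± 0.113 without overlap, and Flt1, VEGF receptor 1, −0.34 ± 0.136. Without those libraries Robo4 gave −0.21 and Flt1 −0.15. Pecam1 measured −0.055 ± 0.103 and changed sign without replicate 2. Of 13 smooth muscle and pericyte markers, 5 were higher and 8 lower, 6 lower at an unadjusted p under 0.05 and 3 below without overlap, beside 7.89% and 3.32% of all genes (median −0.29; −0.12 without them). Smooth muscle myosin Myh11 measured −0.78 ± 0.2602 (−0.31 without them), Notch3, a pericyte receptor, −0.63 ± 0.216 (−0.31) and the PDGF receptor Pdgfrb −0.41 ± 0.144 (−0.32). With the length slope as a covariate the medians of the endothelial and smooth muscle lists were −0.11 and −0.11. Fibroblast markers had a median of 0.026. Erythroid genes had a median of 0.078 (the globin gene Hba-a1, which has a near-identical copy, 0.17 ± 0.389), and −0.50 without the 2 libraries.

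The genes with the lowest p among those lower with antimiR-195, after Per1, were not members of any list here, and all 9 lay below PBS without overlap. Ing5, a chromatin reader of a histone acetyltransferase complex, measured 14.6, 17.1, 15.8 and 15.3 CPM with PBS and 10.9, 9.42, 8.11 and 11.8 CPM with antimiR-195 (−0.64 ± 0.126, edgeR adjusted p = 0.253; −0.46 without replicates 2 and 3). The adaptor gene Sh2d3c measured 36.2, 29.9, 33.6 and 34.4 CPM and 22.97, 20.1, 24.3 and 26.9 CPM (−0.51 ± 0.103; −0.42), and the IP3 receptor gene Itpr3 −0.77 ± 0.167 (−0.66). The remaining 6 ranged from −0.77 to −0.48: the remodelling ATPase Smarca2, the phosphatase gene Phlpp2, the kinase gene Alpk1, the guanine nucleotide exchange factor Dock6, Prr12 and Gm20721. Without replicates 2 and 3 they gave, in this order, −0.29, −0.53, −0.53, −0.34, −0.42 and −0.61. Except for Gm20721 (1484 bases), these 6 are long, at 6556 to 8449 bases. On the higher side the noncoding RNA gene Gm16046 measured 1.30 ± 0.251.

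The libraries injected with hydrogel alone were compared with the same PBS libraries, so the values are set side by side and their agreement was not measured. In the same fit 0 genes (0%) passed for Upy-PEG against PBS and 1944 (13.2%) had an unadjusted p under 0.05. For antimiR-195 against Upy-PEG 0 genes (0%) passed and 1930 (13.1%) did. Nppa measured 1.45 with antimiR-195 and 1.60 with Upy-PEG alone against the same PBS libraries, and Nppb 1.46 and 0.72. The direct difference of the gel groups for Nppb was 0.74 ± 0.253 (edgeR adjusted p = 0.364). Per1 measured −1.31 and −0.76, and Hspa1a 0.99 and 0.26.

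Collagen and division genes had other values with Upy-PEG alone. Col1a1 measured −0.29 with antimiR-195 and 0.93 with Upy-PEG alone, and the gel groups differed by −1.23 ± 0.277 (edgeR adjusted p = 0.364). Mki67 measured −0.074 and 1.23, and the gel groups differed by −1.31 ± 0.2698 (edgeR adjusted p = 0.364). The list medians against PBS were 0.25 with antimiR-195 and 1.11 with Upy-PEG alone for mitosis genes, −0.062 and 0.72 for collagens, and 0.35 and 0.93 for myofibroblast genes. For the stress list they were 0.37 and 0.26, for the clock list −0.18 and −0.26, and for the unfolded protein response 0.22 and 0.19. None of the direct differences named passed the adjusted threshold.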

How the data were processed

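Polyadenylated RNA of 12 left ventricle libraries was sequenced, of which 8 (4 Upy-PEG_antimiR-195, 4 PBS) are compared. STAR, HTSeq, DESeq and the build GRCm38 stand in the submitters' processing notes, and per the labels' protocols libraries came from a stranded mRNA kit; tool versions and the annotation counted on are not given in the sources used here. The deposited values used are the authors' read counts per gene, equal in the series table and the sample files in 459516 of 459516 cells. The authors' deposited RPKM table served for gene length (counts divided by RPKM, 23961 genes) and for 1 alternative. Reads assigned to no gene (6.25% to 8.77%) were left out.

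Counts of 38293 genes were filtered with filterByExpr by group, leaving 14770, and tested with edgeR 4.0.16 (R 4.3.3, limma 3.58.1): TMM, a quasi-likelihood fit of 3 group means over all 12 libraries with 9 residual degrees of freedom, and p-values adjusted by Benjamini-Hochberg, threshold 0.05. Levels are TMM-scaled CPM, and for log2 CPM 2 counts were added as the prior. The standard error is the log2 fold change divided by the square root of F. The fit was tested on simulated data. Names and coordinates came from GENCODE M21, which held 36345 of the gene IDs. Seed matches were sought in the longest 3′ untranslated region of protein-coding transcripts. Members of 51 lists and the lists themselves were chosen with earlier results of these data known. Named were the 10 genes of each sign with the lowest p, a fixed set, and up to 3 members per list with an unadjusted p under 0.05. Some genes that these rules name are left out here. Other members and Dleu2 and Smc4 were named after their values were seen. Libraries follow the order of deposition, with no batch or pairing in the labels. The alternatives were DESeq2 1.42.0, voom weighted by sample, limma-trend on RPKM, other size factors and filters, only the 8 libraries, a length covariate and leaving out libraries. Depth of 22.4 to 30.3 × 10⁶ counts per library limits genes of a few CPM.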

Additional observations from a re-analysis of the deposited data

Results flagged for a closer look

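Of 362 groups of 4 libraries examined, 17 held a library whose gap to its nearest neighbour was large against the range of its group. Chance gives about 1 in 20 such groups. PBS replicate 1 was the library in 7 of the 17: it was lowest in Alpk1 (4.95 CPM, next 5.90), Smtn (205 CPM, next 246), the mitochondrial share (12.3%, next 18.7%), the share of reads on no gene (6.25%, next 7.59%) and the mean deviation of mitochondrially encoded genes (−0.59 on the log2 scale). It was highest in Hba-a1 (240.2 CPM, next 99.1) and in the hemoglobin share (0.144%, next 0.0601%). Among the other PBS libraries, replicate 3 was highest in Mmp12 (4.83 CPM) and replicate 4 highest in resident macrophage genes (mean deviation 0.17).

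AntimiR-195 replicate 2 was highest in Gdf15 (16.4 CPM, next 7.93), Thbs4 (21.8 CPM, next 10.3), Ftl1 (293 CPM, next 167) and DNA replication genes (mean deviation 0.54, next 0.095), and lowest in Pecam1 (128 CPM, next 158). Replicate 4 was highest in Arntl (13.6 CPM, next 3.48) and in the host genes of the miR-15 family (mean deviation 0.29). Replicate 1 was lowest in interferon response genes (mean deviation −0.19, next 0.19).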

How the results depend on the processing

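No paired analysis was possible because the labels carry no replicate numbers and the columns share none across groups. Adjusted calls numbered 0 in edgeR, 97 with DESeq2, and 1 each with limma voom and without a filter. Higher genes at an unadjusted p under 0.05 numbered 780 with library size alone, 847 with voom, 693 with limma-trend on RPKM, 586 with the covariate for length and 333 with antimiR-195 replicates 2 and 3 left out, against 1278, and 548 to 2087 when each library was left out. Lower genes, 1166 in all, numbered 745 with the covariate and 345 without the 2 libraries, and 563 to 2097 when each was left out. The shift of genes with a seed match went to −0.033 without the 2 libraries. Of the named genes 35 values changed sign. With voom Myh7 gave −0.22, Top2a −0.052, Pecam1 0.0036 and Ccnd1 0.0053. With the length covariate Myh7 gave −0.30, Ckm −0.20, Mki67 0.18, Pecam1 0.051, Hba-a1 −0.62, Ccnd1 0.017 and Bcl2 0.14. Without antimiR-195 replicates 2 and 3 Myh7 gave −0.42, Ckm −0.12, Pecam1 0.028, Hba-a1 −0.61, Ccnd1 0.068, Ccne1 −0.052, Bcl2 0.13 and Tnni2 −0.0065. Leaving out each library gave lowest and highest values of −0.31 and 0.30 for Myh7, −0.24 and 0.065 for Mki67, −0.021 and 0.41 for Top2a, −0.10 and 0.016 for Pecam1, −0.064 and 0.66 for Hba-a1, −0.41 and 0.25 for Chek1, and −0.063 and 0.047 for Ccnd1, and −0.30 and 0.14 for Col3a1. Of the remaining values of named genes 2199 kept their direction and their side of the threshold, and 33 passed it under another tool or setting. The cause of these moves was not tested. Counts of 22.4 to 30.3 × 10⁶ per library leave genes of about 1 CPM, such as Chek1, with wide errors.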

Other observations

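Further gene groups that the report does not describe gave mixed differences between antimiR-195 and PBS, and no member passed the adjusted edgeR threshold. Lipid loading genes had 3 higher and 2 lower at an unadjusted p under 0.05 of 13, beside 8.65% and 7.89% of all genes (median 0.16; 0.084 without antimiR-195 replicates 2 and 3). Fabp5, a fatty acid binding protein, measured 21.2 ± 2.71 CPM with PBS and 29.4 ± 3.04 CPM with antimiR-195 (SD, n = 4), without overlap (log2 fold change 0.47 ± 0.142; 0.48 without the 2 libraries). Mylip, a ubiquitin ligase of the LDL receptor, lay below PBS without overlap (−0.32 ± 0.127; −0.33). Iron genes had 2 higher and 1 lower at that p of 11, beside the same shares of all genes (median 0.25; 0.066), with the ferritin light chain gene Ftl1 at 0.66 ± 0.199 (0.40). Pmp22, a myelin protein that other cells also make, measured 55.1 ± 4.36 CPM with PBS and 66.1 ± 2.96 CPM with antimiR-195 (SD, n = 4), without overlap (0.26 ± 0.0988).

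The counts in this paragraph are at an unadjusted p under 0.05, where 8.65% of all genes tested were higher and 7.89% lower. Genes of vessel growth had 0 higher and 4 lower at that p of 18 (median −0.080), among them the Notch ligand gene Dll4 (−0.32 ± 0.129) and the peptide gene Apln (−0.34 ± 0.144; −0.34 without the 2 libraries). Growth factor genes of the PDGF and IGF families had 1 of 15 higher at that p, Igf1 (0.62 ± 0.204), and 1 lower (median −0.013). Of 21 p53 targets 4 were higher and 1 lower at that p (median 0.062), with the apoptosis genes Bax and Pmaip1 at 0.49 ± 0.199 and 0.90 ± 0.37, and at 0.064 and 0.19 without the 2 libraries. Glucocorticoid response genes had a median of −0.16 and interferon response genes 0.088, the latter −0.0028 without the 2 libraries. Of 22 glycolysis genes 14 were higher in mean and 8 lower, with 1 higher and 2 lower at that p (median 0.036; −0.11 without the 2 libraries), with the regulator Pfkfb3 at −0.46 ± 0.183. Genes of monocyte activation had a median of 0.29 (0.022), and mitochondrially encoded genes 0.19. Few lymphocyte markers passed the filter on low counts: of 12 T and NK cell markers 5 were tested, and of 9 B cell markers 5. Krt18, an epithelial keratin found in mesothelium, measured 1.31 ± 0.605, with a median of −0.064 over the 10 epicardial markers.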
